A study of Rattus norvegicus with 12 samples.

Results

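Glycolysis enzymes were followed in rat hepatocytes isolated at increasing intervals after the death of the donor. The rule named 8 genes, Pfkl, Tpi1, Gapdh, Pgk1, Pgam1, Eno1, Pklr and Ldha, and took every probe set, a group of probes against 1 transcript, whose only gene symbol in the platform annotation was among them, leaving out control probe sets. It gave 10 of the 31042 probe sets without controls, for 7 of the 8 genes. Gapdh had no such probe set: 3 control probe sets carry its name and 1 further probe set lists it beside a second symbol.

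The liver was perfused with collagenase, and RNA was taken from the freshly isolated hepatocytes. The donors were rats of the strain labelled Fischer 334, either heart-beating or dead for 4, 16 or 30 h, with 3 animals and 3 Affymetrix arrays in each group, so n = 3 per group throughout. The labels give no age or sex and no cause of death, and all groups share the perfusion. The question was how the transcripts of hepatocytes depend on the interval since death. Values are log2 signals, in which a difference of -1 is a halving, and a probe set was called when its limma p, adjusted by Benjamini-Hochberg over all 31042 probe sets, was under 0.05.

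Glycolysis splits glucose into pyruvate in the cytosol and yields ATP without oxygen. In its upper part phosphofructokinase commits the sugar to breakdown, and in its lower part triose phosphates are oxidized and turned into pyruvate. Lactate dehydrogenase then regenerates the NAD+ that the pathway needs when oxygen is lacking. Most of the steps run both ways, and the liver of a fasting animal uses the same enzymes to make glucose, while phosphofructokinase and pyruvate kinase act in the direction of breakdown alone. In cells short of oxygen the hypoxia-inducible factors raise many of these genes, and in the fed liver the factor ChREBP, encoded by Mlxipl, raises Pklr.

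Signals of 3 of the 7 enzymes fell after death, and those of Pfkl, Tpi1, Eno1 and Pklr did not pass the test. Ldha, Pgam1 and Pgk1 were lower at 16 h and at 30 h than in heart-beating donors, with Ldha at 41.7% of the control signal at 30 h. At 4 h 0 of 10 probe sets were called by limma, against 7 of all 31042 (0.0226%, with 0.00966% higher and 0.0129% lower). An unadjusted p under 0.05 was found in 0 of the 10 and in 1637 of all 31042. At 16 h 3 of 10 were called, all lower, where 4.67% of all probe sets were called, 1.49% lower and 3.18% higher. At 30 h 4 of 10 were called, all lower, where 19.7% of all were called, 9.36% lower and 10.4% higher. The median log2 difference of the 10 moved from -0.07 at 4 h to -0.13 at 16 h and -0.32 at 30 h, beside 0.00, -0.02 and 0.01 over all probe sets. Over the 4 groups together, the moderated F test called 4 of 10, and 21.3% of all probe sets. These 3 comparisons share the heart-beating arrays.

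**Figure D1:**
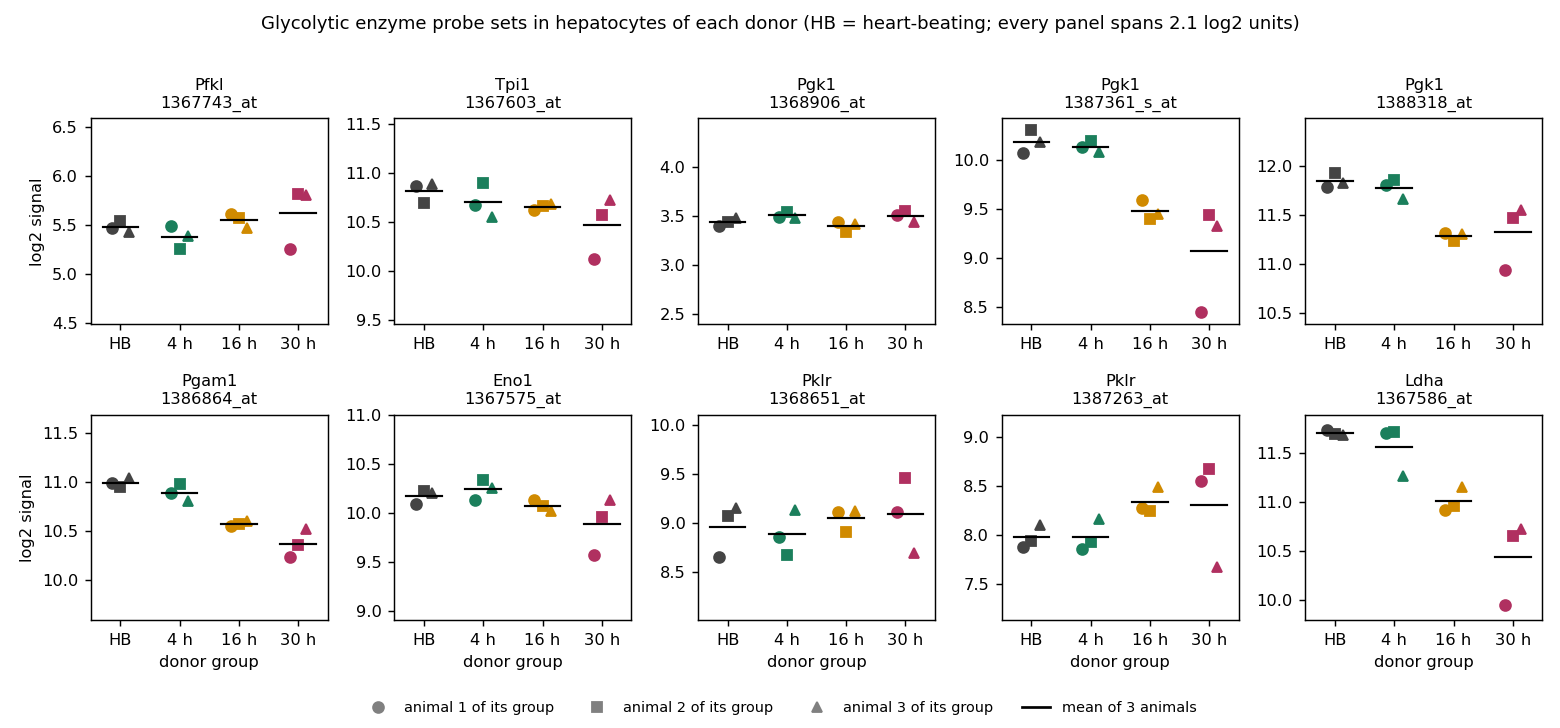
Log2 signal of each of the 10 probe sets (vertical axis) in every animal of the 4 donor groups (horizontal axis), with symbols for the animals and a line for the mean of 3. Every panel spans the same range; Ldha, Pgam1 and 2 of the 3 Pgk1 panels step down at 16 h, and at 30 h the animals lie further apart, with animal 1 the lowest in 7 of the 10 panels.

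The arrays of 1 group correlated at 0.9913 to 0.997. RNA quality differed with time: the signal of the 3' control probe set of Gapdh exceeded that of the 5' one by 0.27 to 0.46 log2 units in heart-beating donors and at 4 h, by 0.85 to 1.25 at 16 h and by 1.79 to 2.31 at 30 h. Against heart-beating donors, exact permutation (two-sided) gave p = 0.1 at both later times, the smallest possible with 3 arrays against 3. All 10 hepatocyte markers lay above the median probe set on average, with Alb near the top of the scale. The 30 h arrays varied most, and this touched the enzymes: at 30 h their median standard deviation was 0.33, after 0.08 in the controls, 0.11 at 4 h and 0.06 at 16 h. Over all probe sets it was 0.12 at 30 h and 0.08 in each other group. At 30 h animal 1 was the lowest of the 3 in 7 of the 10 probe sets, and in 34.7% of all probe sets. That animal also had the largest 3' to 5' difference of Gapdh, 2.31 against 1.79 and 1.82, but the smallest of Actb, 2.75 against 2.92 and 2.95.

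Phosphofructokinase, the committed step, was represented by Pfkl, the liver subunit. Its log2 signals were 5.46, 5.54 and 5.42 in heart-beating donors, 5.48, 5.25 and 5.38 at 4 h, 5.61, 5.57 and 5.46 at 16 h, and 5.25, 5.82 and 5.80 at 30 h. The groups overlapped, and at 30 h animal 1 lay below and the other animals above every heart-beating donor. The log2 difference from heart-beating donors was -0.10 (SE 0.12) at 4 h, 0.07 at 16 h and 0.15 at 30 h, with a 95% interval of -0.12 to 0.42 at 30 h (adjusted p = 0.464, limma). Without 30 h animal 1 the difference at 30 h was 0.33 (SE 0.08) and was called (adjusted p = 0.0122, limma). This was 1 call in 21 alternative fits, whose differences at 30 h ran from -0.18 to 0.33. The signal of this probe set lies below the median signal of the arrays, which limits what a change in it can show.

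Tpi1, triosephosphate isomerase, interconverts the triose phosphates. Its log2 signals were 10.87, 10.69 and 10.89 in heart-beating donors, 10.67, 10.89 and 10.55 at 4 h, 10.62, 10.67 and 10.68 at 16 h, and 10.12, 10.57 and 10.72 at 30 h. The 16 h animals all lay below the heart-beating donors, while the groups at 4 h and 30 h overlapped with them. The log2 difference was -0.11 at 4 h, -0.16 at 16 h and -0.34 (SE 0.13, adjusted p = 0.0857, limma) at 30 h, not past the threshold. Without 30 h animal 3 it was -0.47 and was called (adjusted p = 0.023, limma). This was 1 call in 22 alternative fits, whose differences at 30 h ran from -0.47 to -0.17.

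Gapdh, which oxidizes glyceraldehyde 3-phosphate and passes electrons to NAD+, was read through its control probe sets alone. At the 3' end the 4 groups, in order of time, had log2 signals of 11.84 ± 0.02, 11.79 ± 0.03, 11.76 ± 0.06 and 11.79 ± 0.11 (mean ± SD, n = 3). In the middle of the transcript it was 11.46 ± 0.06, 11.43 ± 0.11, 11.04 ± 0.12 and 10.54 ± 0.35. The 5' probe set showed differences of -0.74 (16 h) and -1.63 (30 h) from the control mean. At both times all 3 arrays lay below all heart-beating arrays in the middle and at the 5' end (p = 0.1 for each by exact permutation). At the 3' end the exact p was 0.2 at 16 h and 0.8 at 30 h. For this enzyme the size of the difference therefore ran from -0.05 to -1.63 at 30 h with the part of the transcript that was read.

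Pgk1, phosphoglycerate kinase, makes the first ATP of the pathway. Its brightest probe set, 1388318_at, gave log2 signals of 11.78, 11.93 and 11.83 in heart-beating donors, 11.81, 11.86 and 11.67 at 4 h, 11.32, 11.23 and 11.31 at 16 h, and 10.94, 11.48 and 11.55 at 30 h. All animals at 16 h and 30 h lay below all heart-beating donors, while the 4 h animals overlapped with them. It fell by 0.56 on the log2 scale at 16 h (SE 0.13, adjusted p = 0.0242, limma) and by 0.52 at 30 h (SE 0.13, adjusted p = 0.0105, limma), and 30 h differed from 16 h by 0.04 (SE 0.13). The order of its group means was heart-beating, 4 h, 30 h and 16 h, in which heart-beating and 4 h, and likewise 30 h and 16 h, did not differ beyond their spread.

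A second probe set of Pgk1, 1387361_s_at, gave 10.07, 10.30 and 10.18 in heart-beating donors, 10.13, 10.19 and 10.08 at 4 h, 9.59, 9.39 and 9.45 at 16 h, and 8.44, 9.43 and 9.32 at 30 h. The later groups again lay wholly below the heart-beating donors. The log2 difference was -0.71 at 16 h (SE 0.19, adjusted p = 0.0513, limma) and -1.12 at 30 h (SE 0.19, adjusted p = 0.00124, limma). From 16 h to 30 h this probe set moved by -0.45 (SE 0.11) relative to the brightest one, a difference called by limma across all 6609 such pairs (adjusted p = 0.00806), as were 18.8% of the pairs, and it was the 1 of 3 member pairs called there. Against heart-beating donors at 30 h the pair differed by -0.59 (SE 0.11, adjusted p = 0.000332, limma), where 34.8% of all pairs were called. Of the 3 member pairs, 2 were called at 30 h, 1 at 16 h (14.1% of all pairs), 1 between 4 h and 16 h (19%) and 0 at 4 h (0.0454%, limma, 0 of 3 with an unadjusted p under 0.05); the calls beyond those described involved the dim probe set 1368906_at. The third probe set, 1368906_at, read 3.34 to 3.56 on all 12 arrays, near the lowest value of the table (2.99), so its differences are not read as a level of the transcript. The suffix of the second probe set marks probes shared by more than 1 transcript.

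**Figure D2:**
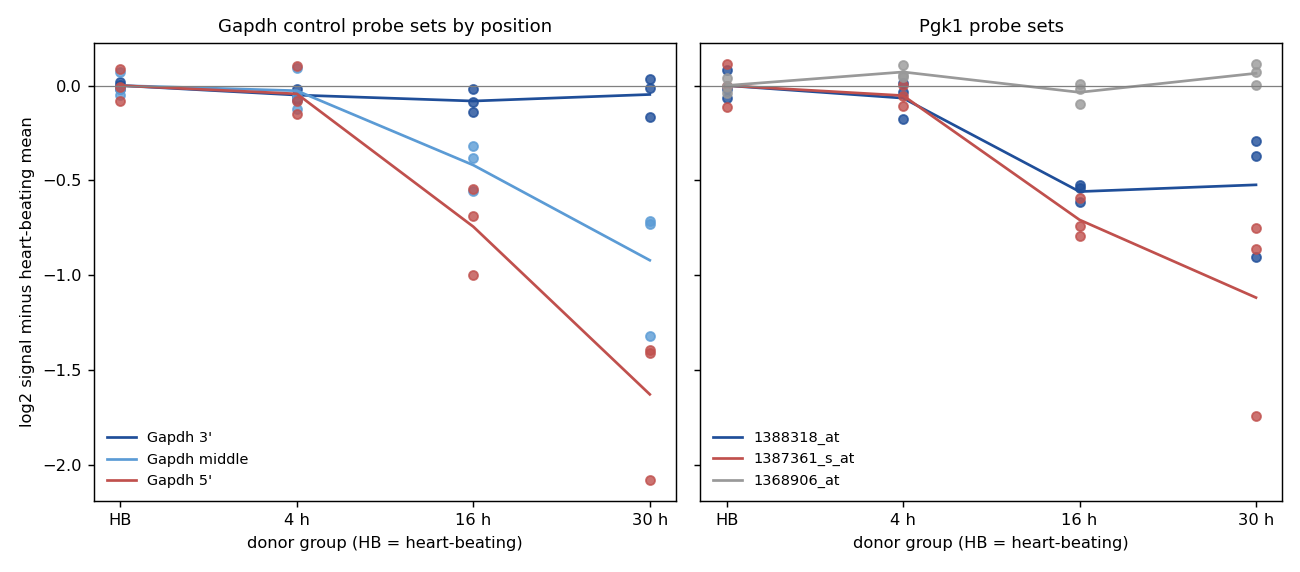
Log2 signal minus the mean of heart-beating donors (vertical axis) for the Gapdh control probe sets at the 3' end, in the middle and at the 5' end (left) and for the 3 Pgk1 probe sets (right), with a point per array and lines through the group means. The Gapdh lines part after 4 h and reach -0.05, -0.92 and -1.63 at 30 h, and the Pgk1 probe sets reach -0.52, -1.12 and 0.06.

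Pgam1, phosphoglycerate mutase, moves the phosphate of phosphoglycerate. Its log2 signals were 10.99, 10.96 and 11.04 in heart-beating donors, 10.89, 10.98 and 10.81 at 4 h, 10.56, 10.57 and 10.60 at 16 h, and 10.24, 10.36 and 10.52 at 30 h. The animals fell into an upper set of heart-beating and 4 h donors, which overlapped, then the 16 h and below them the 30 h animals, with no overlap between these. It fell by 0.42 on the log2 scale at 16 h (SE 0.08, adjusted p = 0.00841, limma) and by 0.62 at 30 h (SE 0.08, adjusted p = 0.000132, limma), to 65.0% of the control signal. From 16 h to 30 h the difference of -0.20 (SE 0.08, adjusted p = 0.11, limma) did not pass. This was the smallest F test p of the 10 (adjusted p = 0.000274, limma).

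Eno1, enolase, makes phosphoenolpyruvate. Its log2 signals were 10.09, 10.23 and 10.21 in heart-beating donors, 10.13, 10.34 and 10.26 at 4 h, 10.13, 10.08 and 10.02 at 16 h, and 9.57, 9.97 and 10.14 at 30 h. The 16 h and 30 h groups overlapped with the heart-beating donors. The log2 difference was 0.07 at 4 h, -0.10 at 16 h and -0.29 at 30 h (SE 0.12, adjusted p = 0.106, limma), not past the threshold. Without 30 h animal 3 it was -0.41 and was called (adjusted p = 0.0188, limma). This was 1 call in 22 alternative fits, whose differences at 30 h ran from -0.41 to -0.13.

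Pklr, the pyruvate kinase of liver and red cells, makes pyruvate and ATP in the last step. Probe set 1368651_at read 8.66, 9.07 and 9.16 in heart-beating donors, 8.86, 8.67 and 9.13 at 4 h, 9.11, 8.90 and 9.12 at 16 h, and 9.11, 9.46 and 8.70 at 30 h. All groups overlapped, and the log2 difference was -0.07 at 4 h, 0.09 at 16 h and 0.13 (SE 0.18, 95% interval -0.26 to 0.52) at 30 h. Probe set 1387263_at read 7.88, 7.94 and 8.10 in heart-beating donors, 7.86, 7.93 and 8.16 at 4 h, 8.28, 8.24 and 8.49 at 16 h, and 8.56, 8.68 and 7.68 at 30 h. All 16 h animals lay above all heart-beating and all 4 h donors, while at 30 h animals 1 and 2 lay above and animal 3 below every heart-beating donor. The log2 difference was 0.36 at 16 h (SE 0.20, adjusted p = 0.345, limma) and 0.33 at 30 h (SE 0.20, adjusted p = 0.284, limma), with a 95% interval of -0.10 to 0.76 at 30 h. Without the 30 h arrays the rise at 16 h was called (0.36, SE 0.10, adjusted p = 0.0427, limma), and without 30 h animal 3 that at 30 h was 0.64 (adjusted p = 0.00141, limma). Of the alternative fits of this probe set, 2 of 22 were called at 16 h (differences 0.27 to 0.45). At 30 h 1 of 21 was called (0.07 to 0.64). The change of this probe set differed from that of the other by 0.28 (SE 0.13) at 16 h and 0.20 (SE 0.13) at 30 h, not past the threshold (adjusted p = 0.164 and 0.245, limma).

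Ldha, the lactate dehydrogenase subunit that reduces pyruvate to lactate, had the largest difference of the 10 probe sets at 30 h, though not at 16 h, where the Pgk1 probe set 1387361_s_at stood at -0.71. Its log2 signals were 11.74, 11.70 and 11.69 in heart-beating donors, 11.71, 11.72 and 11.27 at 4 h, 10.92, 10.96 and 11.16 at 16 h, and 9.95, 10.66 and 10.73 at 30 h. The heart-beating donors lay close together (SD 0.03), 1 of the 4 h animals lay apart from its group, and the later groups overlapped neither with the controls nor with each other. It fell by 0.70 on the log2 scale at 16 h (SE 0.18, adjusted p = 0.0406, limma) and by 1.26 at 30 h (SE 0.18, adjusted p = 0.00034, limma), a signal 2.40-fold lower. The order of the group means was heart-beating, 4 h, 16 h and 30 h. The 4 h group differed from heart-beating donors by -0.14 (95% interval -0.52 to 0.23), from the 16 h group by a step of -0.55 (adjusted p = 0.0739, limma), and the step from 16 h to 30 h was -0.57 (adjusted p = 0.0587, limma). None of these neighbours differed past the threshold.

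**Figure D3:**
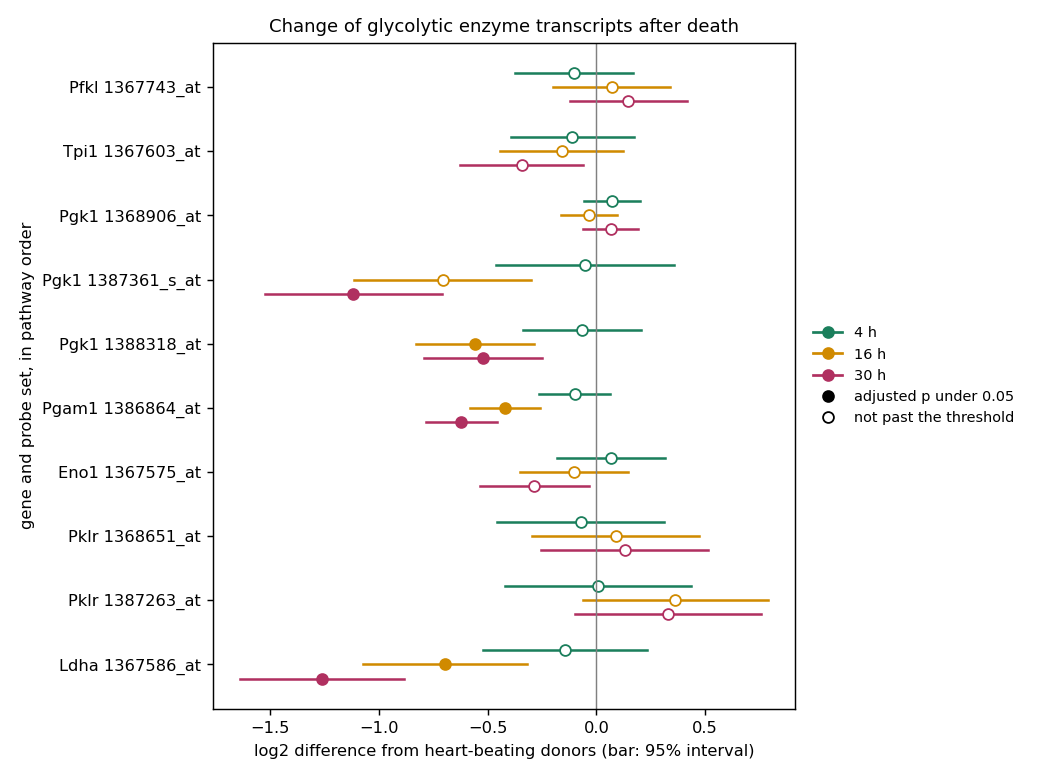
Log2 difference from heart-beating donors (horizontal axis) of each probe set, in pathway order from top to bottom, at 4, 16 and 30 h after death, with 95% intervals from the limma fit and filled points where the adjusted p was under 0.05. The filled points belong to Pgk1, Pgam1 and Ldha and all lie below 0, from -0.42 to -1.26; Pfkl and both Pklr probe sets lie above 0 at 16 h and 30 h with intervals that include 0.

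Between successive times, 2 of 10 probe sets were lower at 16 h than at 4 h, the Pgk1 probe set 1388318_at (-0.49, SE 0.13, adjusted p = 0.0303, limma) and Pgam1 (-0.32, SE 0.08, adjusted p = 0.0212, limma). Of all probe sets 7.82% were called in that comparison, 2.52% lower and 5.31% higher. From 16 h to 30 h limma called 0 of 10, where 10.2% of all were called, 5.95% lower and 4.29% higher, and 3 of 10 had an unadjusted p under 0.05. The 16 h group lay wholly below the heart-beating group in 5 of 10 probe sets and wholly above in 1, beside 15.7% and 13% of all probe sets. The 30 h group did so in 4 and 0 of 10, beside 16.6% and 16.9%, and the 4 h group in 0 and 1, beside 6.22% and 7.23%. Against the 4 h group, the 16 h group lay wholly below in 6 and wholly above in 1 (17.9% and 14.6% of all), and the 30 h group lay wholly below the 16 h group in 2 and above in 0 (12.9% and 13.7%).

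Single arrays mattered at 16 h: the 3 calls became 1, that of Pgam1, when any 1 of the heart-beating donors or of the 16 h animals was left out, and 5 without the 30 h arrays. The count of 4 at 30 h became 7 without 30 h animal 3. The calls gained were Tpi1 and Eno1, lower, and the Pklr probe set 1387263_at, higher (0.64). The 2 calls between 4 h and 16 h became 0 without 16 h animal 1 or 2 or 4 h animal 1 or 2, 1 without 16 h animal 3, and 4 without 30 h animal 1 or 3. The 0 calls between 16 h and 30 h became 1 without 30 h animal 2 or 4 h animal 3 and 2 without 30 h animal 3. Counts over all probe sets shifted too. Without 1 array they were 448 to 2157 at 16 h (1449 with all arrays) and 4202 to 6045 at 30 h (6130). Between 4 h and 16 h they were 1081 to 3256 (2428), and between 16 h and 30 h 1265 to 4138 (3180). With the Actb 3' to 5' difference of the control probe sets as a covariate, 0 of 10 were called in each of the 5 comparisons, with Ldha at -1.52 (SE 0.46) at 30 h. In that fit 0 of all 31042 probe sets were called at 30 h and 139 at 16 h. How far RNA quality and the interval after death each bear on these falls cannot be told apart in this design.

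The 250 bases before the transcription start of Ldha and Pgam1, which fell, and of Pklr, which did not pass, are shown. They hold matches to letters through which oxygen and sugar are known to act on genes. Whether the matches in Ldha and Pgam1 are bound was not tested. The bases come from RefSeq (assembly GRCr8), whose table held windows for 7 of the 8 genes, not for Pgk1. In Ldha (chr1:106507842-106508091, plus strand) and Pgam1 (chr1:250672902-250673151, plus strand) capitals mark each ACGTG or GCGTG on either strand, the core that hypoxia-inducible factors bind. In Pklr (chr2:176841014-176841263, plus strand) capitals mark the carbohydrate response element of the liver promoter, written as CACGGG, then NNNNN, then CCCGTG.
Ldha: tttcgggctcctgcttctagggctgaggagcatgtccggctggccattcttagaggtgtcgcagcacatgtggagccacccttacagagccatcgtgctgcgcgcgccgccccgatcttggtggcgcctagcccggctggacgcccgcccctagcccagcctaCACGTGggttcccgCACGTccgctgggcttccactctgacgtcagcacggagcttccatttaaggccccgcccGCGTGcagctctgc
Pgam1: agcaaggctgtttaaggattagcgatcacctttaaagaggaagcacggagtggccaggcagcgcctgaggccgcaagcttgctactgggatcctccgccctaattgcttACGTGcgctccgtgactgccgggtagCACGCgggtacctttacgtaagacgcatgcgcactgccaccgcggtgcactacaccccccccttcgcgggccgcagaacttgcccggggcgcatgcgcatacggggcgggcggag
Pklr: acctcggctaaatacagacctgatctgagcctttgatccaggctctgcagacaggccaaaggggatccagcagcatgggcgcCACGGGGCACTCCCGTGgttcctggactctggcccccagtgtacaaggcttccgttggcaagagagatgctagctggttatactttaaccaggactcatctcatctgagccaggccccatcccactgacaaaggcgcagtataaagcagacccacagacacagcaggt
Ldha held 3 matches to ACGTG, 2 of them the opposite strands of 1 CACGTG between 87 and 82 bases before the start, and 1 to GCGTG. Pgam1 held 1 match to each. Among all 33469 promoter windows of 250 bases, 36.7% held ACGTG or GCGTG, as did 6 of the 8 windows of these genes; the exceptions were Tpi1 and Pklr, and Eno1 had 2 windows. The element of Pklr lay between 168 and 152 bases before the start and was found in 1 of the 33469 windows (0.00299%). Its letters were taken from what is known of this promoter, so the match is no finding. Pfkl, which held 2 matches to GCGTG, and Eno1, with 1 in each window, did not pass the test in any comparison. The letters are a description of the promoters and were not related to the changes by any test.

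The profiles of the enzymes were compared over the 12 arrays, each centred on its heart-beating mean, by the root mean square difference. The closest pairs were the Pgk1 probe set 1388318_at with Pgam1 (0.13 log2 units), Tpi1 with Eno1 (0.14) and the Pgk1 probe set 1387361_s_at with Ldha (0.17). The farthest pair was the Pklr probe set 1387263_at with Ldha (1.03). Outside the pathway, among 14210 genes, the profiles most like that of Pgam1 were those of Rps15a, a protein of the small cytosolic ribosomal subunit, and Mrpl35, of the mitochondrial ribosome (0.08 for both, median of all genes 0.40). Rps15a stood at -0.39 at 16 h and -0.62 at 30 h. Those most like Ldha were Psmd8 of the proteasome (0.14) and Crp, an acute phase protein (0.16, median of all genes 0.77). Psmd8 stood at -0.68 and -1.10. Those most like Pgk1 were Nicn1 (0.10) and Ndufb9 of respiratory complex I (0.11, median 0.43).

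The rest of the pathway was read by the brightest probe set of each gene. Of all probe sets 0.0226% were called at 4 h. At 16 h it was 4.67% (1.49% lower, 3.18% higher), and at 30 h 19.7% (9.36% lower, 10.4% higher). Of 21 other glycolytic enzymes and isoenzymes 16 were measured: 0 were called at 4 h, 0 at 16 h and 1 at 30 h, higher, with a median log2 difference of -0.03 at 16 h and -0.03 at 30 h. The exception was Bpgm, which makes the 2,3-bisphosphoglycerate of red cells, at 0.94 (SE 0.18, adjusted p = 0.00281, limma) at 30 h. By a further probe set of Bpgm the difference was 0.24 (SE 0.15, adjusted p = 0.299, limma). A dimmer probe set of Adpgk, of the same list, was called higher at 30 h (0.32, SE 0.08, adjusted p = 0.0179, limma). Its brightest one was not called (-0.11). Of 7 measured erythroid markers 3 were higher at 16 h and 4 at 30 h, with Alas2 at 2.45 and Hbb at 1.89 at 30 h, and their summed signal on the linear scale was 4324 to 5392 in heart-beating donors and 13730 to 20610 at 30 h. The part of red cell RNA in the signals of Bpgm and Pklr was not tested.

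Of 8 measured regulators of the flux, limma called 0 at 4 h, 1 at 16 h and 2 at 30 h, all higher than in heart-beating donors. Beside them, 3.18% of all probe sets were called higher at 16 h and 10.4% at 30 h. A dimmer probe set of Pfkfb3, which makes and removes fructose 2,6-bisphosphate, was called higher at 16 h than at 4 h (0.34, adjusted p = 0.0317, limma). It was called lower at 30 h than at 16 h (-0.36, adjusted p = 0.0223, limma). The brightest one was not called (-0.03 and -0.11). The mean signal of the dimmer one, 4.62, lies below the median of every array, which limits what its changes can show. Hif1a, the oxygen-regulated subunit of the hypoxia-inducible factor, stood at 0.33 (SE 0.07, adjusted p = 0.0193, limma) at 16 h and 0.13 (adjusted p = 0.219, limma) at 30 h. Mlxipl rose by 0.37 (SE 0.07, adjusted p = 0.00323, limma) at 30 h, after -0.10 at 16 h. Gckr rose by 0.26 (SE 0.08, adjusted p = 0.0494, limma) at 30 h. Pfkfb1, the liver enzyme that makes and removes fructose 2,6-bisphosphate, was higher at 16 h than at 4 h by 0.59 (SE 0.14, adjusted p = 0.0242, limma).

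Among 18 measured genes for the entry of hexoses and the fate of pyruvate and lactate, 2 were higher at 16 h. At 30 h 3 were higher and 2 lower. Of all probe sets 4.67% were called at 16 h (1.49% lower, 3.18% higher) and 19.7% at 30 h (9.36% lower, 10.4% higher). Dimmer probe sets of Pdk1 (-1.59, adjusted p = 0.000256, limma), Pdk4 (-0.80, adjusted p = 0.00157, limma) and Pdha1 (-0.63, adjusted p = 0.00108, limma) were called lower at 30 h. The brightest ones of these genes were not called (0.11, -0.09 and 0.20). Slc2a2, the glucose transporter of hepatocytes, rose by 0.86 at 16 h (SE 0.17, adjusted p = 0.0142, limma) and 0.54 at 30 h (adjusted p = 0.0436, limma). Mpc2, a subunit of the mitochondrial pyruvate carrier, fell by 1.04 on the log2 scale at 30 h (SE 0.15, adjusted p = 0.000516, limma). Pdk2, a kinase that switches off pyruvate dehydrogenase, stood at 0.66 (SE 0.08, adjusted p = 9.66e-05, limma) at 30 h by its brightest probe set, but its other probe set was called lower, at -0.47 (SE 0.09, adjusted p = 0.00357, limma). Tkfc, which phosphorylates glyceraldehyde from fructose, was lower at 16 h than at 4 h by both of its probe sets (-0.70 and -0.52), and at 30 h it was called higher than in heart-beating donors by its brightest one (0.45), with -0.03 by the other.

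Of 6 measured enzymes and carriers that oppose glycolysis in gluconeogenesis, 2 were higher and 0 lower at 16 h, and 0 were higher and 1 lower at 30 h, with medians of 0.32 and -0.06. Beside them, 4.67% of all probe sets were called at 16 h (1.49% lower, 3.18% higher). At 30 h it was 19.7% (9.36% lower, 10.4% higher). G6pc1, of the same list, was not matched to a probe set. Pc, pyruvate carboxylase, rose by 0.52 (SE 0.13, adjusted p = 0.0351, limma) at 16 h, as did Slc37a4, the glucose 6-phosphate transporter, by 0.50 (SE 0.12, adjusted p = 0.0313, limma). At 30 h they stood at -0.11 and -0.06. Fbp1, fructose bisphosphatase, stood at -0.14 at 16 h and fell by 1.08 on the log2 scale at 30 h (SE 0.17, adjusted p = 0.00068, limma). Whether any list differed from another was not tested.

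**Figure D4:**
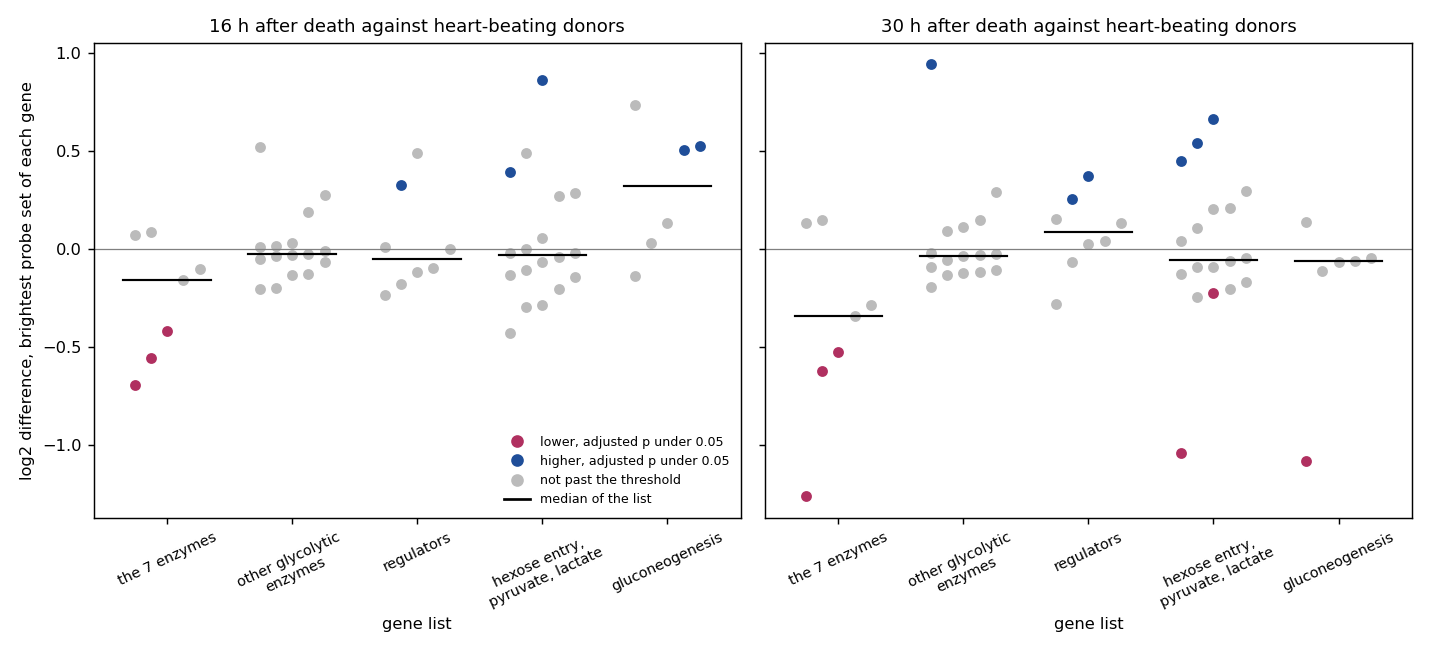
Log2 difference from heart-beating donors (vertical axis) at 16 h (left) and 30 h (right) for each gene of 5 lists (horizontal axis), by its brightest probe set, with colour for calls and a line at the median of each list. The 3 red points of the glycolysis enzymes at each time are Ldha, Pgk1 and Pgam1, while 16 other glycolytic enzymes hold 0 calls at 16 h and 1 at 30 h, the blue point of Bpgm at 0.94.

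Markers of other cell types moved on the same arrays, and in such bulk RNA fewer cells of a type and less RNA per cell cannot be told apart. Beside the counts of markers, 1.49% of all probe sets were called lower and 3.18% higher at 16 h. At 30 h 9.36% were called lower and 10.4% higher. Of 10 Kupffer cell markers 5 were lower at 16 h and 7 at 30 h, with a summed linear signal of 4926 to 5275 in heart-beating donors and 3109 to 3777 at 30 h. Of 10 stellate cell and fibroblast markers 1 was higher and 1 lower at 16 h and 4 were higher at 30 h, and of 9 endothelial markers 3 were higher at 16 h and 1 at 30 h. Of 4 biliary and 9 lymphocyte and neutrophil markers 0 were called at either time. Of the 10 hepatocyte markers, by their brightest probe sets, 1 was higher at 16 h, and 1 was higher and 2 lower at 30 h. The higher one was Hnf4a, at 0.61 and 0.76. Of its 2 other probe sets 1 was called in the opposite direction at 30 h. The 1 other probe set of Cps1 was called lower at 30 h, while its brightest one was not called (0.08). The summed linear signal of the 10 markers was 89290 to 92410 in heart-beating donors and 81100 to 88220 at 30 h. The part of these cells in the falls of Ldha, Pgam1 and Pgk1 was not tested.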

How the data were processed

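For each of 12 arrays the authors deposited a log2 signal per probe set. RMA and limma are named in the submitters' processing notes, without versions or settings. Since RMA equalizes the arrays, a signal is read against its own array. The number of arrays limits the precision. Of 31099 probe sets 57 were controls and were kept out of the tests.

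The other 31042 probe sets were fitted with a mean for each group in limma 3.58.1 (lmFit, eBayes) in R 4.3.3, with 8 residual and 4.93 prior degrees of freedom, no filter and no further normalization, and p-values were adjusted over all of them. Pairs of probe sets of 1 gene were tested the same way on their difference. Symbols came from the platform annotation. Genes of the lists were matched by these or by the RefSeq symbol of the gene ID, which RefSeq held for 20758 of 20826 probe sets with 1 symbol. The fit was tested on simulated data.

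All probe sets of the members are named. Of each further list, up to 4 called genes with the smallest F test p are named. Alas2, Hbb, Alb and Hnf4a, and genes named for a dimmer probe set alone, were added after their values were seen. The members and lists were chosen with earlier results of these data known. Alternatives were 3 normalizations, a filter on the upper 50% of probe sets, 1 probe set per gene, a variance trend, array weights, fewer groups, a replicate block, a covariate for RNA quality and leaving out each array.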

Additional observations from a re-analysis of the deposited data

How the results depend on the processing

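Across 23 settings no called difference of a member changed its sign. Of 1105 values of the 50 member differences, 35 lost and 40 gained a call, and 31 of 863 uncalled values had the opposite sign. With the Actb 3' to 5' difference as a covariate the counts of members called at 16 h, at 30 h, between 4 h and 16 h and over the 4 groups were all 0. Members called at 16 h numbered 5 with only the groups compared and without the 30 h arrays. Those lower or higher at 16 h than at 4 h numbered 4 with array weights or cyclic loess, 1 with median centring, 5 with only the groups compared and 5 without the 30 h arrays. From 16 h to 30 h, 1 was called among the upper 50% of probe sets. Leaving out 1 array gave 0 members at 4 h, 1 to 4 at 16 h, 4 to 7 at 30 h, 0 to 4 between 4 h and 16 h, 0 to 2 between 16 h and 30 h and 4 to 6 over the 4 groups. Called pairs of probe sets ranged from 0 to 1 at 16 h and 0 to 1 between 4 h and 16 h.

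Animals with the same number in different groups shared only the number: 2 of 18 such pairs of arrays had a correlation of deviations over 0.1 (-0.272 to 0.111). With the replicate number as a block the count of called pairs between 4 h and 16 h went from 1 to 0, and at 16 h Ldha was no longer called (adjusted p = 0.0613, limma; range over its alternatives 0.0022 to 0.166). With only the groups compared the Pgk1 probe set 1388318_at lost its call at 30 h (adjusted p = 0.057, limma; range 0.00372 to 0.628). Over all probe sets, the count called at 30 h was 6130, and 4202 to 6045 without 1 array; at 16 h it was 1449, 448 to 2157 without 1 array and 3628 with array weights. The cause of these shifts was not tested.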
